A study of Mus musculus with 18 samples.

Results

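The genes described here encode the subunits of the mitochondrial respiratory chain and of ATP synthase, together with a few of their assembly factors and isoforms. They were taken from both expression tables of a mouse liver study as the protein-coding genes whose symbols begin with Nduf, Uqcr, Cox4 to Cox8 or Atp5, plus Sdha, Sdhb, Sdhc, Sdhd, Cyc1 and the protein genes of mitochondrial DNA. The rule gave 108 members of 54532 genes in each table, 22046 of which are protein coding. Of the 108, 13 are encoded by mitochondrial DNA and 95 by the nucleus; 51 belong to complex I, 4 to complex II, 10 to complex III, 23 to complex IV and 20 to complex V. The rule itself uses no expression value, but it was set with earlier results of these data known.

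All 18 libraries came from the liver of wild-type male C57BL/6J mice fasted overnight, 1 library from each mouse. A pair of experiments asked how a diet nearly free of riboflavin (B2D) changes liver mRNA against the matched control diet (Ctrl). In the first, 5 Ctrl and 5 B2D mice ate their diet for 1 month and received no drug. In the second, 4 Ctrl+FF and 4 B2D+FF mice ate it for 9 weeks and were given fenofibrate (FF), an agonist of the nuclear receptor PPARα, from week 7 to week 9, with the last dose 2 h before the liver was taken. Fenofibrate, the length of the diet, the age of the mice and the table the values were normalised in all change together between the experiments and cannot be told apart, so levels with and without fenofibrate are given side by side and without a test. The diet effect was tested within each experiment.

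The respiratory chain carries electrons from NADH and succinate to oxygen, and complexes I, III and IV pump protons across the inner mitochondrial membrane, which ATP synthase (complex V) uses to make ATP. Riboflavin is the precursor of FMN and FAD. Complex I takes electrons from NADH through the FMN held by Ndufv1, and complex II takes them from succinate through the FAD bound to Sdha. Complexes I, III, IV and V are assembled from subunits made by both genomes, which are transcribed by separate machineries, while complex II is entirely nuclear.

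Reads recovered from the steps of the values numbered 17134133 to 21266792 in the Ctrl libraries, 15320729 to 19598461 in B2D, 16290762 to 17386688 in Ctrl+FF and 16947517 to 21898502 in B2D+FF. Levels are in FPKM, fragments per kilobase of gene length, with libraries normalised by DESeq2 within each table. The summed level of 8 hepatocyte markers was 32229 to 42299 FPKM in Ctrl, 32565 to 46604 in B2D, 21843 to 25037 in Ctrl+FF and 18958 to 21955 in B2D+FF. None of the 8 was at 0 throughout a group. The sums of the separately normalised experiments did not overlap. Libraries differed in the level of short genes and of the nuclear members. Over the nuclear members no longer than their median length of 1569 bases, the median log2 difference from the Ctrl mean in the first experiment was -0.33 in Ctrl 5, -0.48 in B2D 3 and -0.22 in B2D 5, against -0.11 to 0.19 in the other 7 mice. Over the other genes of that length it was -0.22, -0.36 and -0.19 in those 3 mice. The longer nuclear members had -0.21, -0.28 and -0.18 in them, against -0.11 to 0.14 in the other 7. Medians are therefore given below with and without those 3 mice. In the second experiment the median of the shorter nuclear members from the Ctrl+FF mean was 0.24 in Ctrl+FF 3, -0.18 in Ctrl+FF 4 and 0.35 in B2D+FF 1. It was -0.06 to 0.10 in the other 5 mice. Over the other genes of that length it was 0.15, -0.12 and 0.16 in Ctrl+FF 3, Ctrl+FF 4 and B2D+FF 1. The longer nuclear members had 0.17, -0.15 and 0.36 in those 3 mice, which are also left out below. In whole liver, fewer cells of a type and less RNA per cell cannot be told apart.

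The transcripts of the 13 mitochondrial genes made up most of the respiratory chain mRNA in every liver. Summed over the 13 genes, the level was 39509 to 53519 FPKM in Ctrl (mean 46608 ± 5220.3, SD, n = 5), 46752 to 75338 in B2D (59005 ± 11346, n = 5), 65106 to 73227 in Ctrl+FF (69055 ± 3426, n = 4) and 55546 to 67883 in B2D+FF (62579 ± 5288, n = 4). Summed over the 95 nuclear members, it was 6186 to 8569.9 FPKM in Ctrl, 5937 to 8287 in B2D, 10704 to 14193 in Ctrl+FF and 12524 to 16027 in B2D+FF. The ranges of diet and control mice overlapped for both sums in both experiments. The mitochondrial sum was 9.83 to 12.5% of all FPKM in Ctrl, 11.4 to 18.1% in B2D, 14.4 to 16.7% in Ctrl+FF and 12.5 to 16.2% in B2D+FF. The nuclear sum took 1.44 to 2.03%, 1.49 to 2.09%, 2.44 to 3.02% and 2.95 to 3.60% in the same order of groups.

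**Figure D1:**
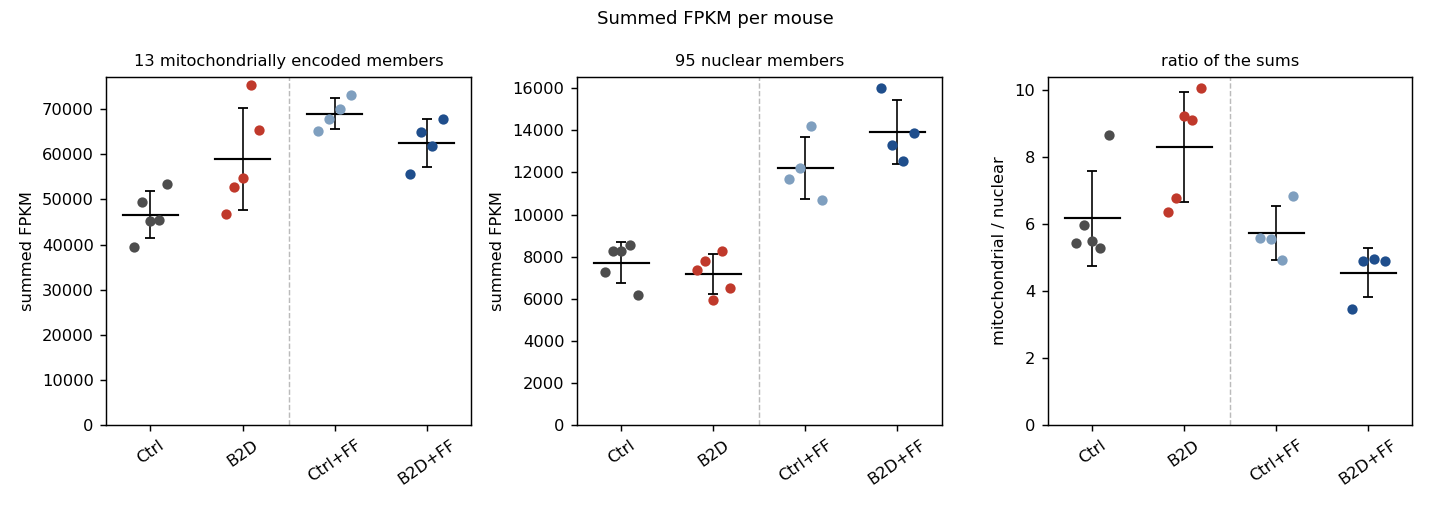
Summed FPKM of the mitochondrially encoded and of the nuclear members, and their ratio, in each mouse. Points are mice, lines group means, bars SD, and the dashed line separates the separately normalised tables. The ratio averaged 6.17 in Ctrl and 8.29 in B2D, and 5.73 in Ctrl+FF and 4.55 in B2D+FF, with overlapping ranges within each experiment.

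The ratio of the mitochondrial to the nuclear sum was 5.30 to 8.65 in Ctrl (6.17 ± 1.41, SD, n = 5) and 6.35 to 10.1 in B2D (8.29 ± 1.64, n = 5). With fenofibrate it was 4.93 to 6.84 in Ctrl+FF (5.73 ± 0.801, n = 4) and 3.47 to 4.94 in B2D+FF (4.55 ± 0.722, n = 4). Within each experiment the ranges overlapped, in the first through Ctrl 5 alone, and in the second by the lowest Ctrl+FF and the highest B2D+FF mouse. The mean ratio was higher in B2D than in Ctrl and lower in B2D+FF than in Ctrl+FF.

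Single mitochondrial genes spanned levels from 6.04 to 24359 FPKM, although mitochondrial DNA is transcribed as long precursors that are cut into the separate mRNAs. mt-Co1, the catalytic subunit of complex IV, was highest with 13325 to 16863 FPKM in Ctrl, followed by mt-Cytb, mt-Nd1 and mt-Nd2, whose ranges overlapped. mt-Nd3 and mt-Nd4l of complex I, mt-Co2 and mt-Co3 of complex IV and mt-Atp6 of complex V were listed at 44.3 to 299 FPKM in all 18 mice. Those 5 genes are the ones with near-identical copies in the nucleus over almost their whole length: 97.6 to 99.9% of their 100-base windows also occur in unprocessed pseudogenes between 24612407 and 24615565 on chromosome 1, on the minus strand (coordinates of the GENCODE release 21 mouse annotation, mm10). For mt-Nd4 the share was 60.8%, for mt-Co1 30.8% and for mt-Nd2 3.20%, and mt-Nd1, mt-Nd5, mt-Nd6, mt-Cytb and mt-Atp8 shared none.

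The pairs of mitochondrial gene and nuclear copy are shown because a read from the shared stretch cannot be placed on only 1 of them. Over the 681 aligned bases, mt-Co2 and its copy Gm28661 were identical. mt-Nd3 (chrMT) and Gm28438 (chr1:24612775-24613119) differed at 1 of 345 bases and mt-Co1 and Gm29216 (chr1:24615706-24616197) at 6 of 492, printed here for bases 1 to 60 of mt-Nd3 and bases 1054 to 1113 of mt-Co1, with the bases that differ in capitals:
mt-Nd3: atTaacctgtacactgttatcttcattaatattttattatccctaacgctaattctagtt
Gm28438: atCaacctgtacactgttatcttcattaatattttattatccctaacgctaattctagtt
mt-Co1: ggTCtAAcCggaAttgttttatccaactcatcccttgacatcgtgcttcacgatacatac
Gm29216: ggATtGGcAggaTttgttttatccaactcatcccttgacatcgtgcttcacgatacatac
The stretch of mt-Co1 printed holds all 6 differences. The 7 copies on chromosome 1 were themselves listed at 10.9 to 439 FPKM. How reads that match several places were counted is not given in the sources used here, so the levels of the 5 shared genes are uncertain. Neighbouring mitochondrial genes also overlap: mt-Atp8 with mt-Atp6, mt-Atp6 with mt-Co3, mt-Nd4l with mt-Nd4 and, on opposite strands, mt-Nd6 with mt-Nd5. The level of mt-Atp8 can depend on how reads in its overlap were counted, and is uncertain as well. Whether counting used the strand is not given in the sources used here. If it did not, RNA from the strand opposite mt-Nd6 was counted for mt-Nd6 too. mt-Nd6 may then not be a separate result from mt-Nd5.

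**Figure D2:**
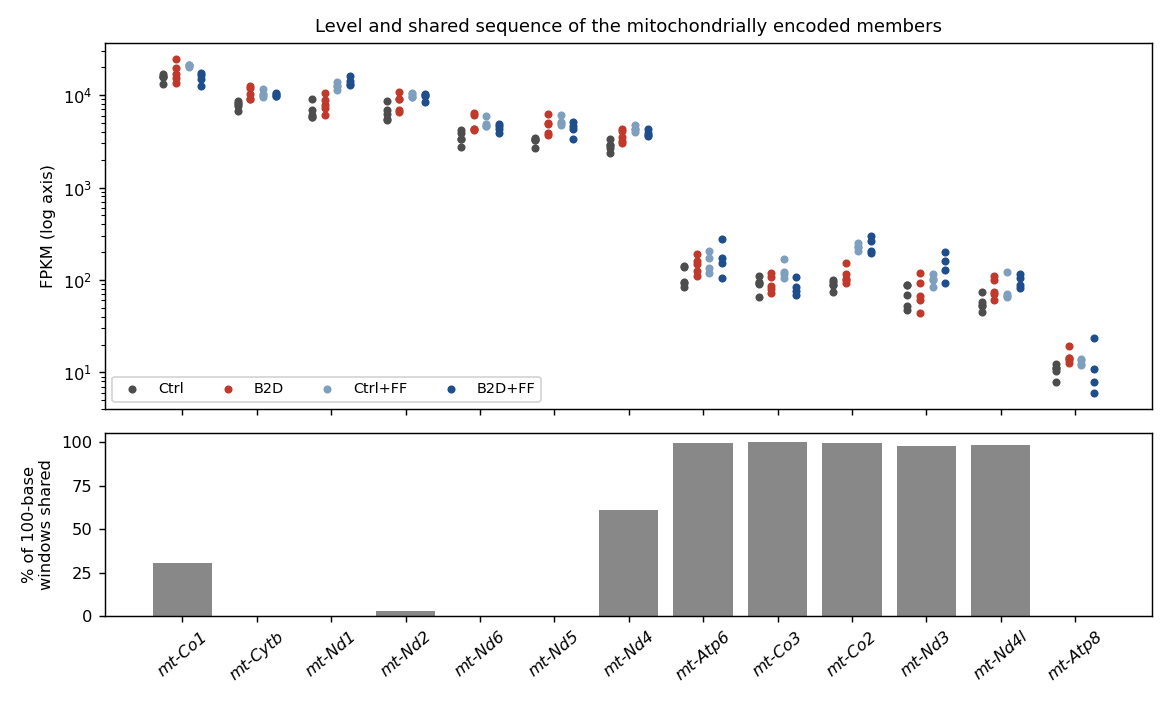
FPKM of each of the 13 mitochondrial genes in each mouse, on a log axis, by group. The 5 genes with near-identical nuclear copies lie between 44.3 and 299 FPKM and mt-Atp8 between 6.04 and 23.4, while the other 7 lie at 2379 FPKM or more.

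Under the deficient diet without fenofibrate, mitochondrial transcripts averaged higher than in Ctrl and most nuclear transcripts slightly lower, a direction that some scalings of the libraries turned, and no member passed an adjusted p of 0.05. All 13 mitochondrial genes had a log2 fold change above 0, with a median of 0.37, against a median of 0.00 over the 11574 genes tested, of which 5768 were above 0. Among the 102 members tested, 0 passed the adjusted threshold as higher and 0 as lower, where 0.769% and 1.94% of all tested genes did (limma, Benjamini-Hochberg). At an unadjusted p under 0.05, 9 members were higher and 3 lower, against 8.24% and 10.1% of all genes. The 8 mitochondrial genes among those 9 were mt-Nd4, mt-Nd4l, mt-Nd5 and mt-Nd6 of complex I, mt-Cytb of complex III, mt-Co2 of complex IV and mt-Atp6 and mt-Atp8 of complex V.

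mt-Nd5, a proton-pumping subunit at the far end of the complex I membrane arm, had the lowest p of the 13. Its levels were 2644, 3293, 3329, 3287 and 3397 FPKM in the Ctrl mice and 3745, 4809, 3884, 6196 and 5014 in the B2D mice. Every B2D mouse lay above every Ctrl mouse. The log2 fold change, here and below of log2(FPKM + 1) and given ± SE, was 0.55 ± 0.15, with an adjusted p of 0.0794 by limma. mt-Cytb, the heme-bearing core of complex III, was at 6692, 8199, 8062, 7649.5 and 8540.3 FPKM in Ctrl and at 8999, 8996, 10325, 12416 and 11851 in B2D. It too was without overlap (log2 fold change 0.42 ± 0.13, adjusted p 0.119, limma).

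mt-Atp8, a small membrane subunit of ATP synthase, was at 10.5, 11.3, 7.95, 11.1 and 12.2 FPKM in Ctrl and at 12.8, 13.5, 14.2, 19.2 and 14.4 in B2D, from 32 to 76 reads a library. Its groups did not overlap either (log2 fold change 0.45 ± 0.13, adjusted p 0.102, limma). These 3 genes and 1 nuclear member, Cox6b2, by a narrow gap given below, were the 4 members higher in B2D without overlap, where 2.08% of all tested genes were. 2 members, Ndufs8 and Ndufaf1, were lower without overlap, against 2.89%.

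mt-Nd6, the only mitochondrial subunit encoded on the opposite strand, was at 2763, 3858, 3364, 3349 and 4196 FPKM in Ctrl and 4193, 4339.8, 4288, 6019 and 6388 in B2D; B2D 1 lay just under Ctrl 5, and the other B2D mice lay above all Ctrl mice. The log2 fold changes of mt-Nd4 (0.35 ± 0.14), mt-Nd4l (0.53 ± 0.18), mt-Atp6 (0.42 ± 0.19) and mt-Co2 (0.32 ± 0.14) were of similar size. The complex IV genes mt-Co1, with 0.18 ± 0.16, and mt-Co3, with 0.02 ± 0.17, had the smallest differences beside mt-Nd3 (0.12 ± 0.26), and each overlapped Ctrl. The 6 genes that share under 10% of their windows with nuclear copies had a median of 0.43. They include mt-Atp8, which overlaps the shared gene mt-Atp6. Without Ctrl 5, B2D 3 and B2D 5 the median of the 13 was 0.39.

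**Figure D3:**
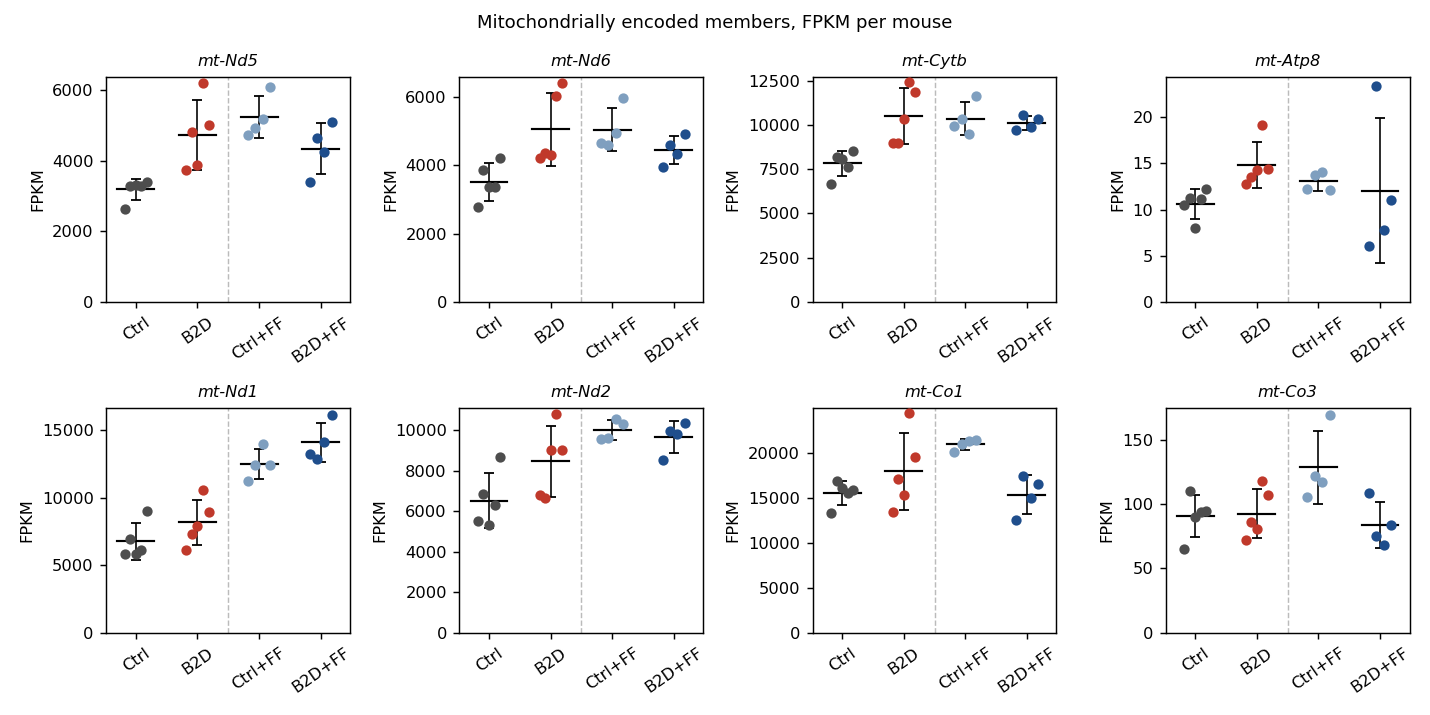
FPKM of 8 mitochondrial genes in each mouse by group, with the group mean (line) and SD (bar); the dashed line separates the tables. In mt-Nd5, mt-Cytb and mt-Atp8 every B2D mouse lies above every Ctrl mouse, and in mt-Co1 every B2D+FF mouse lies below every Ctrl+FF mouse.

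Of the 89 nuclear members tested in that experiment, 75 had a log2 fold change below 0 and 14 above 0 in B2D, with a median of -0.11. That direction depends on the scaling of the libraries: the median was 0.00 after quantile normalisation, -0.01 at a fixed sum of FPKM and 0.05 at a fixed sum over nuclear genes, and it was -0.06 without Ctrl 5, B2D 3 and B2D 5. With 1 mouse left out it ran from -0.19 without Ctrl 5 to -0.03 without B2D 3, with -0.07 without Ctrl 2 or Ctrl 4, -0.06 without Ctrl 3 and -0.16 without B2D 4. By complex, the nuclear median was -0.15 for complex I, -0.08 for complex II, -0.09 for complex III and -0.07 for complexes IV and V. The corresponding mitochondrial medians were 0.37 for complex I, 0.42 for complex III (1 gene), 0.18 for complex IV and 0.44 for complex V.

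Of the 89 nuclear members tested, 3 were lower at an unadjusted p under 0.05, a share below the 10.1% of all genes. All 3 belong to complex I, which holds 44 of the 89, and 2 of them are assembly factors. Ndufs8, an iron-sulfur subunit of the arm that reduces ubiquinone, was at 51.5, 63.7, 61.4, 55.3 and 50.002 FPKM in Ctrl and 45.2, 47.5, 38.9, 49.9 and 42.3 in B2D, without overlap (log2 fold change -0.33 ± 0.11, adjusted p 0.138, limma). The assembly factor Ndufaf1, which helps build the membrane arm, was at 12.4, 14.9, 11.9, 12.9 and 17.0 FPKM in Ctrl and 9.66, 10.3, 9.49, 11.7 and 11.5 in B2D, also without overlap (log2 fold change -0.36 ± 0.11, adjusted p 0.122, limma). Ndufaf6, another assembly factor, overlapped by more than 1 mouse (log2 fold change -0.36 ± 0.14, adjusted p 0.190, limma).

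The largest fold change below 0 was that of Ndufa1, an accessory subunit of 419 bases, with -0.45 ± 0.26 on the log2 scale. Its levels were 80.6, 78.4, 89.4, 109.8 and 46.2 FPKM in Ctrl and 87.4, 75.6, 40.4, 56.7 and 38.3 in B2D. Its 3 lowest values were those of Ctrl 5, B2D 3 and B2D 5, whose nuclear members and other short genes lay low. The accessory subunits Ndufa13 (-0.33 ± 0.17; 24.0% of its windows lie in the overlapping gene Tssk6) and Atp5k (-0.33 ± 0.30) were lowest in the same 3 mice, and neither was below an unadjusted p of 0.05. The part of that shift in these differences was not tested.

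With fenofibrate, the nuclear members averaged higher on the deficient diet and the mitochondrial genes did not. Of 90 nuclear members tested, 80 had a log2 fold change above 0 in B2D+FF against Ctrl+FF, with a median of 0.17, while 5 of 13 mitochondrial genes did, with a median of -0.06 (0.06 after quantile normalisation and 0.01 at a fixed sum of FPKM); the median of the 11878 genes tested was 0.01. The nuclear median stayed between 0.11 and 0.23 under the other scalings, and ran from 0.11 without B2D+FF 1 or Ctrl+FF 4 to 0.23 without Ctrl+FF 3. Without Ctrl+FF 3, Ctrl+FF 4 and B2D+FF 1 the nuclear median was 0.12 and the mitochondrial median 0.02; with those 5 mice, 11 members were higher and 1 lower at an unadjusted p under 0.05, and 0 passed the adjusted threshold (limma). Among the 103 members tested, 5 rose at an adjusted p under 0.05 and 0 fell, where 2.24% of all tested genes rose and 2.21% fell (limma). At an unadjusted p under 0.05, 27 members were higher, 26 of them nuclear, and 2 were lower, both mitochondrial, against 11.3% and 9.93% of all genes. Without overlap between the groups, 16 members were higher, all nuclear, and 1 was lower, against 7.82% and 6.44%.

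**Figure D4:**
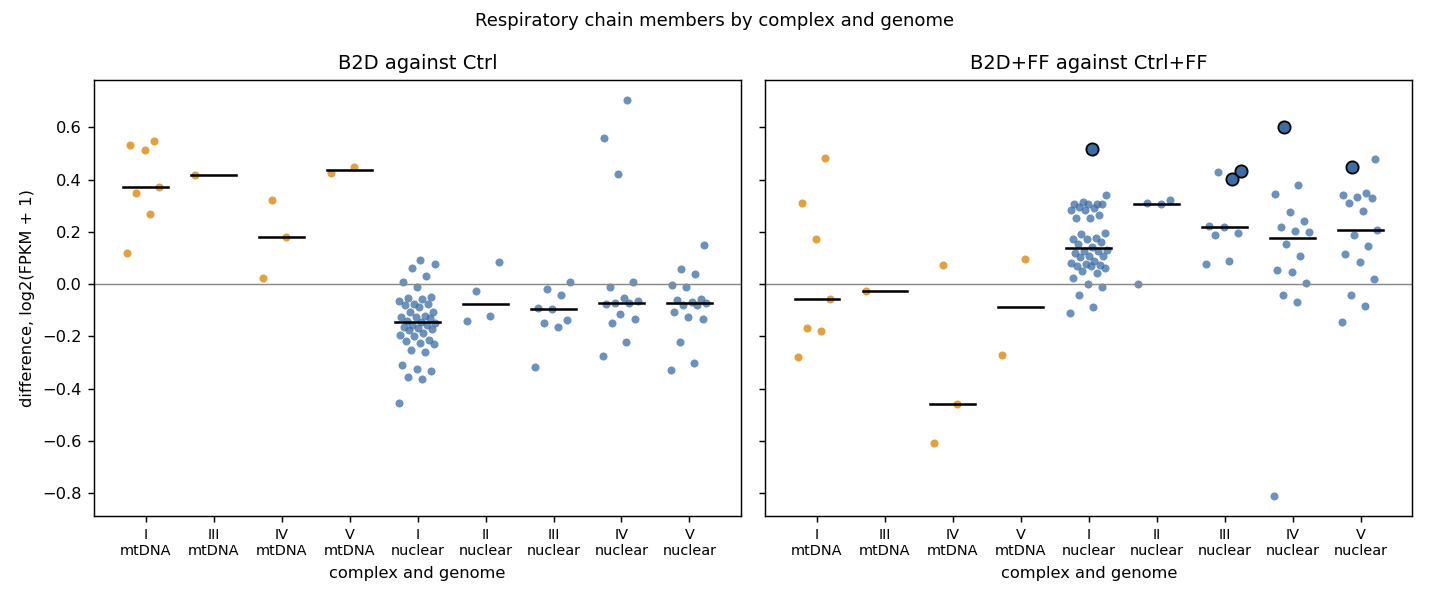
Log2 fold change of each tested member on the deficient diet, by complex, without fenofibrate and with it. Orange points are mitochondrial genes, blue points nuclear members, black lines medians, and large outlined points members past an adjusted p of 0.05. Without fenofibrate the 13 mitochondrial genes have a median of 0.37 and nuclear members -0.11 (0.05 at a fixed sum over nuclear genes), and with it -0.06 (0.06 after quantile normalisation) and 0.17.

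Ndufv1, which binds the FMN of complex I and is the entry point of electrons from NADH, had the lowest p. The gene (ENSMUSG00000037916) lies at chr19:4007497-4012806, minus strand (mm10). Its levels were 62.6, 60.1, 61.2 and 65.2 FPKM in the Ctrl+FF mice and 93.4, 77.0, 93.7 and 94.9 in the B2D+FF mice. Every B2D+FF mouse lay above every Ctrl+FF mouse, and B2D+FF 2 lay apart from the other 3. The log2 fold change was 0.52 ± 0.09, 95% interval 0.31 to 0.73, with an adjusted p of 0.0182 (limma). Without fenofibrate Ndufv1 was at 57.9, 57.6, 63.6, 59.8 and 55.7 in Ctrl and 67.0, 52.6, 50.2, 69.1 and 47.7 in B2D, with the B2D mice on both sides of the Ctrl range (log2 fold change -0.05 ± 0.12, adjusted p 0.843, limma).

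Atp5b, the catalytic β subunit of the ATP synthase head, rose with a log2 fold change of 0.45 ± 0.09 (adjusted p 0.0251, limma). The mice had 371, 357, 360.0 and 348 FPKM in Ctrl+FF and 496, 457, 482 and 529.8 in B2D+FF, with no overlap. In complex III, Cyc1, the cytochrome c1 that hands electrons to cytochrome c, was at 119, 122, 124 and 109 FPKM in Ctrl+FF and 175, 151, 146 and 169.8 in B2D+FF. Its groups did not overlap, and it rose by 0.43 ± 0.10 on the log2 scale (adjusted p 0.0374, limma).

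Uqcrc1, a structural protein of the matrix side of complex III that is classed below as accessory, was at 75.5, 70.0, 74.6 and 67.2 FPKM in Ctrl+FF and 97.7, 85.4, 97.2 and 102 in B2D+FF (log2 fold change 0.40 ± 0.09, adjusted p 0.0385, limma). Cox7a1, the heart and muscle isoform of a complex IV subunit, was far lower in level, at 5.92, 6.13, 7.85 and 4.74 FPKM in Ctrl+FF and 10.8, 11.3, 8.49 and 8.66 in B2D+FF, from 43 to 123 reads a library (log2 fold change 0.60 ± 0.14, adjusted p 0.0480, limma). Neither gene had overlapping groups. None of the 5 passed without fenofibrate, where the log2 fold changes were -0.01 ± 0.12 for Atp5b, -0.09 ± 0.14 for Cyc1, -0.04 ± 0.13 for Uqcrc1 and 0.42 ± 0.33 for Cox7a1, with unadjusted p of 0.921, 0.516, 0.752 and 0.231 (limma).

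The count of 5 depended on the mice included. It was 0 without Ctrl+FF 1, Ctrl+FF 2 or B2D+FF 4, and 1 without Ctrl+FF 3 (Cox7a1), Ctrl+FF 4 (Ndufv1) or B2D+FF 1 (Ndufv1). It was 4 without B2D+FF 2, where Cox7a1 was lost, and 5 without B2D+FF 3, where Uqcrc1 was lost and Atp5g1 passed. The highest adjusted p with 1 mouse left out was 0.0908 for Atp5b, 0.110 for Cyc1, 0.124 for Uqcrc1 and 0.125 for Cox7a1 (limma). The call of Cox7a1 was also lost after upper-quartile rescaling (adjusted p 0.0681), quantile normalisation (0.0611), with voom (0.0803), in the fit of all 4 groups (0.352) and with no filter on low values (0.111, limma). That of Uqcrc1 was lost after upper-quartile rescaling (0.0586), and those of Uqcrc1 and Cyc1 in the fit of all 4 groups (0.0756 and 0.0831, limma). With no filter, Atp5b, Cyc1 and Uqcrc1 had adjusted p of 0.0545, 0.0570 and 0.0516 (limma). The adjusted p of Ndufv1 ran from 0.00836 to 0.0752 when 1 mouse was left out, while its log2 fold change stayed between 0.49 and 0.59. Without B2D+FF 2, mt-Co1 was the 1 member that passed as lower.

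**Figure D5:**
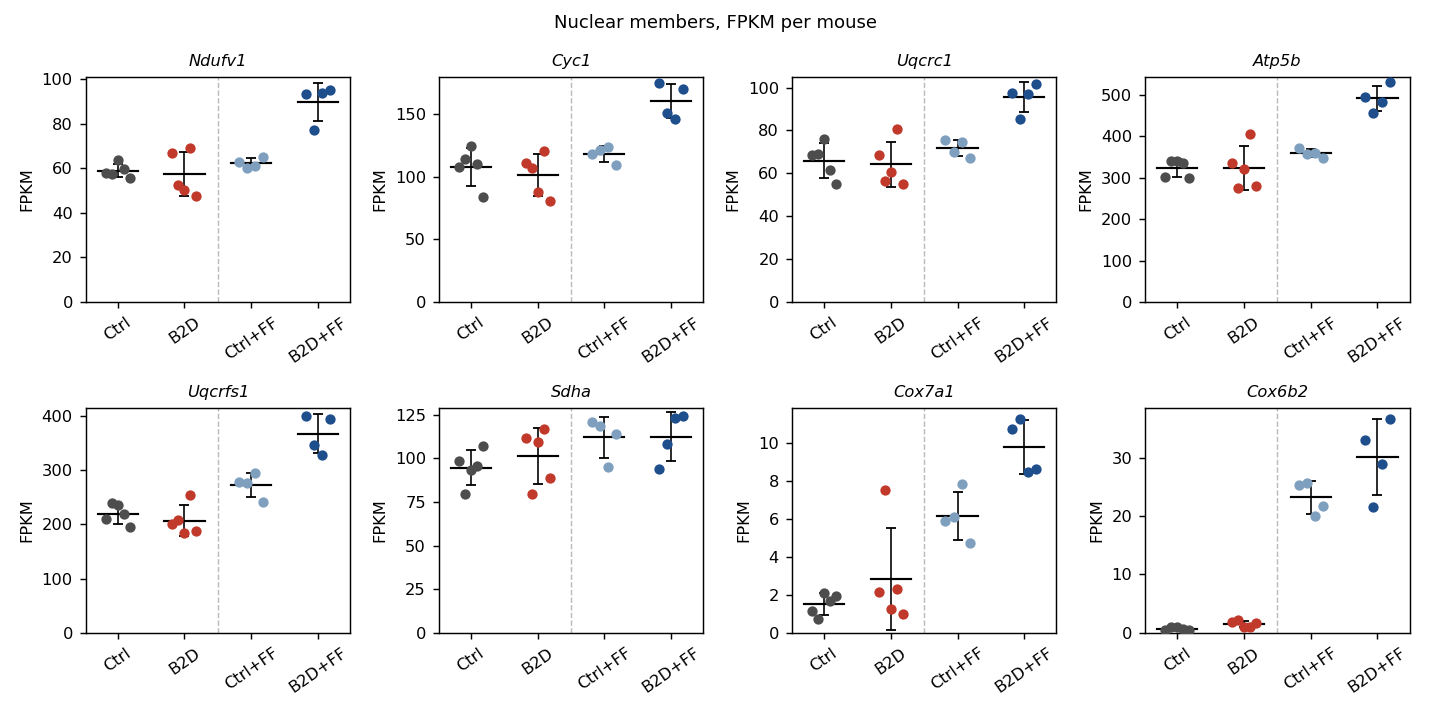
FPKM of 8 nuclear members in each mouse by group, with the group mean (line) and SD (bar); the dashed line separates the separately normalised tables. In Ndufv1 (60.1 to 65.2 FPKM in Ctrl+FF and 77.0 to 94.9 in B2D+FF), Atp5b, Cyc1, Uqcrc1, Uqcrfs1 and Cox7a1 every B2D+FF mouse lies above every Ctrl+FF mouse.

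Several members lay just outside the threshold. Atp5g1, a copy of the proton-carrying c subunit, was at 31.7, 31.1, 37.2 and 31.0 FPKM in Ctrl+FF and 54.0, 47.7, 37.5 and 46.2 in B2D+FF, a gap of under 1 FPKM between the groups (adjusted p 0.0567, limma). Uqcrfs1, the Rieske iron-sulfur protein of complex III, was at 278, 276, 294 and 241 FPKM in Ctrl+FF and 400.4, 347, 327 and 395 in B2D+FF (adjusted p 0.0582, limma). The accessory subunit Cox5a and the core subunits Ndufs1 and Atp5a1 had adjusted p of 0.0689, 0.0789 and 0.0813 in the same limma fit. These 5 were higher without overlap and none passed the threshold.

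The subunits classed as core were set beside those classed as accessory. Most of the core class have counterparts in bacteria and carry redox centres, catalysis or proton transfer, and Atp5e of complex V was also placed in it. Of the 21 nuclear core members tested, 20 had a log2 fold change above 0 with fenofibrate, with a median of 0.31, and 11 did not overlap; 12 were at an unadjusted p under 0.05 and 3 passed the adjusted threshold. Of the 55 accessory members, 49 were above 0, with a median of 0.15, and 4 did not overlap; 11 were at an unadjusted p under 0.05 and 1 passed. Over all tested genes, 11.3% were higher at an unadjusted p under 0.05, 7.82% were higher without overlap and 2.24% passed as higher. Core genes are also the longer ones: 18 of the 21 exceed the median length. Among genes above that length, the median was 0.31 for the 18 core and 0.14 for the 23 accessory members, with 10 and 3 without overlap. Among the shorter ones it was 0.31 for 3 core and 0.15 for 32 accessory members. The difference between the classes was not tested.

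By complex, the nuclear medians with fenofibrate were 0.14 for complex I (40 of 44 above 0), 0.31 for complex II (4 of 4), 0.22 for complex III (9 of 9), 0.18 for complex IV (13 of 16) and 0.21 for complex V (14 of 17). Within complex I, the N module, which oxidises NADH, had 8 of 9 above 0 and a median of 0.12, and the Q module, which reduces ubiquinone, 8 of 8 and a median of 0.19. The P module, the proton-pumping membrane arm, holds all 7 mitochondrial subunits; it had 20 of 26 above 0 and a median of 0.14. Assembly factors that the rule took in had 8 of 9 above 0, with a median of 0.11.

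In complex II, which has no mitochondrial gene, the subunit that binds FAD had a fold change near 0 with fenofibrate, and each of its partners had one above 0. Sdha was at 121, 119, 95.1 and 114 FPKM in Ctrl+FF and 94.2, 108, 123 and 124 in B2D+FF, with a log2 fold change of 0.00 ± 0.12 and a 95% interval of -0.27 to 0.28. Sdhb, Sdhc and Sdhd, the iron-sulfur subunit and the membrane anchors, had log2 fold changes of 0.32 ± 0.12, 0.31 ± 0.10 and 0.31 ± 0.14, of which Sdhc was without overlap (adjusted p 0.108, limma). Without fenofibrate Sdha was at 98.5, 79.6, 93.2, 95.5 and 107 in Ctrl and 112, 79.4, 109, 117 and 89.0 in B2D (log2 fold change 0.09 ± 0.13, adjusted p 0.765, limma). Of the pair of flavin-binding subunits, Ndufv1 passed the threshold with fenofibrate and Sdha in neither experiment; the difference between Ndufv1 and Sdha was not tested.

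The mitochondrial genes with the lowest p in the fenofibrate experiment were a pair of complex IV genes. mt-Co1 (ENSMUSG00000064351) was at 20022, 20980.2, 21241 and 21363 FPKM in Ctrl+FF and 12513, 17355, 14953 and 16514 in B2D+FF, so that every B2D+FF mouse lay below every Ctrl+FF mouse. The log2 fold change was -0.46 ± 0.13, with an adjusted p of 0.0860 (limma), and from 0.0498 to 0.198 with 1 mouse left out. After quantile normalisation the log2 fold change was -0.13 (adjusted p 0.613, limma), and without Ctrl+FF 3, Ctrl+FF 4 and B2D+FF 1 it was -0.34 (0.429, limma); with no filter on low values the adjusted p was 0.668 (limma). mt-Co3 was at 106, 122, 117 and 169 FPKM in Ctrl+FF and 109, 75.1, 68.0 and 84.0 in B2D+FF, overlapping through B2D+FF 1 (log2 fold change -0.61 ± 0.18, adjusted p 0.0914, limma). mt-Co2, the third complex IV gene, had 0.07 ± 0.15. mt-Co1 made up nearly all of the sum of the 3 complex IV genes, which did not overlap between the groups either, at 20355 to 21784 FPKM in Ctrl+FF and 12821 to 17696 in B2D+FF.

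The mitochondrial genes of complex I and complex III gave smaller or mixed differences. mt-Nd1 had a log2 fold change of 0.17 ± 0.13, mt-Nd2 of -0.06 ± 0.11, mt-Nd4 of -0.17 ± 0.11, mt-Nd5 of -0.28 ± 0.15, mt-Nd6 of -0.18 ± 0.13 and mt-Cytb of -0.03 ± 0.11. Of the genes shared with nuclear copies, mt-Nd3 had 0.48 ± 0.21 (adjusted p 0.234, limma), mt-Nd4l 0.31 ± 0.21 and mt-Atp6 0.10 ± 0.29. mt-Atp8 ranged from 6.04 to 23.4 FPKM within B2D+FF alone, from 21 to 97 reads. The 6 genes with little shared sequence, mt-Atp8 among them, had a median of -0.12.

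The diet effects of the experiments were then compared as a difference of log2 fold changes, B2D+FF against Ctrl+FF minus B2D against Ctrl, in 1 fit of all 18 libraries over 11031 genes. Of 102 members, 0 passed the adjusted threshold as higher and 0 as lower, where 0.0816% and 0.0635% of all genes did (limma). At an unadjusted p under 0.05, 15 members were higher, all nuclear, and 6 lower, all mitochondrial, against 6.79% and 5.11%. Of the 89 nuclear members, 85 were above 0, with a median of 0.29, and 12 of the 13 mitochondrial genes were below 0, with a median of -0.45, beside a median of 0.02 over all genes tested. Both medians kept their sign under every scaling tried, at 0.17 to 0.29 for the nuclear members and -0.57 to -0.45 for the mitochondrial genes.

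The lowest p among the members was that of mt-Nd5, with a difference of -0.83 ± 0.22 (unadjusted p 0.00123, adjusted p 0.133, limma). Ndufv1 followed in the other direction with 0.57 ± 0.15 (unadjusted p 0.00169, adjusted p 0.143, limma). The other mitochondrial genes at an unadjusted p under 0.05 were mt-Nd6 (-0.69 ± 0.22), mt-Co1 (-0.64 ± 0.21), mt-Nd4 (-0.52 ± 0.17), mt-Co3 (-0.63 ± 0.26) and mt-Cytb (-0.45 ± 0.17). Among the 15 nuclear members, 10 were of the 21 core subunits and 4 of the 55 accessory ones, and the last was the assembly factor Ndufaf3. Since fenofibrate, diet length, age and table differ together between the experiments, this difference cannot be given to any of them.

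Levels with and without fenofibrate are set side by side here without a test, in separately normalised tables. The nuclear member with the highest level in complex I was Ndufb11, at 91.4 to 135 FPKM in Ctrl and 194 to 264 in Ctrl+FF. In complex II it was Sdhd, at 209 to 315 and 236 to 352, and in complex V Atp5a1, at 338 to 390.5 and 368 to 417. In complex III, Uqcrfs1 led without fenofibrate, at 195 to 239 FPKM in Ctrl, and Uqcr10 with it, at 358 to 550.2 in Ctrl+FF. In complex IV, Cox8a led without it, at 318 to 441, and Cox6a1 with it, at 596 to 704. Ndufv1 was at 58.9 ± 3.02 FPKM (SD, n = 5) in Ctrl and 62.2 ± 2.20 (n = 4) in Ctrl+FF, and the short accessory subunit Atp5k at 44.8 ± 15.5 and 196 ± 48.0.

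Several complex IV subunits exist as liver-type and tissue-restricted isoforms. The general isoforms held nearly all of the level in every group, with Cox4i1 at 222 to 349 FPKM, Cox6a1 at 246 to 455, Cox7a2 at 87.9 to 129.7, Cox8a at 318 to 441 and Ndufa4 at 175 to 281 in Ctrl. Their counterparts Cox4i2, Cox6a2 and Ndufa4l2 did not exceed 0.847 FPKM in any mouse, and Cox7b2, Cox8c and a second gene model of Atp5o were listed at 0 in all 18. Those 3, with Cox4i2 and Cox6a2, were under the mean of 0.5 FPKM needed for testing in both tables, and Ndufa4l2 in the first only.

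Cox6b2, described as the testis isoform of Cox6b, had a mean level of 0.695 FPKM in Ctrl and 23.2 in Ctrl+FF. It was at 0.558, 0.935, 0.961, 0.591 and 0.432 FPKM in Ctrl and 1.86, 2.22, 0.977, 0.977 and 1.61 in B2D, from 10 to 42 reads a library, with every B2D mouse above every Ctrl mouse (log2 fold change 0.56 ± 0.16, adjusted p 0.0834, limma). That gap was narrow: Ctrl 3 had 0.961 FPKM from 21 reads, and B2D 3 and B2D 4 had 0.977 from 19 and 21 reads. In the fenofibrate table it was at 25.4, 25.7, 19.99 and 21.7 in Ctrl+FF and 33.0, 21.6, 29.0 and 36.7 in B2D+FF, from 385 to 833 reads, with overlapping groups (adjusted p 0.256, limma). The lowest mouse given fenofibrate lay above the highest mouse not given it.

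Cox8b and Cox7a1 are isoforms of muscle and brown fat. Cox8b was listed at 0 in all Ctrl mice and in B2D mice other than B2D 2, which had 10.6 FPKM (65 reads), and Ctrl+FF 1 had 4.74 (28 reads). B2D 2 also had the highest Cox7a1 of its experiment, 7.56 FPKM against at most 2.31 in the other 9 mice. The same mice carried brown fat and fat cell transcripts: Ucp1, which marks brown fat, was at 7.05 FPKM in B2D 2 and at 1.49 in Ctrl+FF 1, and Adipoq at 6.19 and 2.47. In the B2D+FF mice, where Cox7a1 rose, Ucp1 was at 0.149 FPKM or less and Adipoq at 0.128 or less. The 6 adipocyte markers summed to 102 to 159 FPKM there, against 70.1 to 105.4 in Ctrl+FF. Only 2 of the 6, Cidec and Cidea, reached the mean needed for testing in that experiment, so the sum is mostly theirs. Their log2 fold changes went opposite ways, at 0.97 and -1.34. The summed level of 9 striated muscle markers was 3.33 FPKM in B2D+FF 1 and 0.38 to 0.59 in the other B2D+FF mice, against 0.44 to 0.74 in Ctrl+FF; Acta1 was at 0.879 in B2D+FF 1 and at 0 in the other 3. The part of fat and muscle tissue in the difference of Cox7a1 was not tested.

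Of 48 assembly factors outside the naming rule, 43 were tested in each experiment. In B2D, 33 had a log2 fold change below 0, with a median of -0.19, 12 of them at an unadjusted p under 0.05 against 10.1% of all genes, and none passed the adjusted threshold (limma). With fenofibrate 23 were above 0, with a median of 0.01, and 1 rose, where 2.24% of all tested genes did, a share near that of the list. It was Foxred1, an FAD-dependent factor of complex I assembly. Foxred1 was at 8.56, 9.01, 9.66 and 8.97 FPKM in Ctrl+FF and 13.04, 12.3, 11.6 and 12.95 in B2D+FF, without overlap (log2 fold change 0.42 ± 0.07, adjusted p 0.0169, limma; up to 0.0665 without Ctrl+FF 1 or Ctrl+FF 2).

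Among 14 genes of cytochrome c and ubiquinone synthesis, 1 rose with fenofibrate, where 2.24% of all tested genes did, and 12 had a log2 fold change above 0. That gene was Cycs, the mobile electron carrier between complexes III and IV, at 47.0, 54.6, 48.8 and 55.7 FPKM in Ctrl+FF and 95.03, 79.3, 67.8 and 87.8 in B2D+FF. Its groups did not overlap (log2 fold change 0.66 ± 0.12, adjusted p 0.0182, limma; up to 0.0687 without Ctrl+FF 1, Ctrl+FF 2, Ctrl+FF 3 or B2D+FF 4). In the first experiment Cycs had 0.38 ± 0.16, with overlapping groups (adjusted p 0.228, limma), and 0 of the 14 passed.

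Of 29 genes that transcribe mitochondrial DNA or handle its mRNA, 1 rose and 1 fell in B2D+FF, near the 2.24% and 2.21% of all tested genes, and 0 of 26 tested passed in B2D. Fastk, a regulator of the stability of mt-Nd6 mRNA, rose (0.58 ± 0.10, adjusted p 0.0149, limma), with 6.82, 7.28, 6.34 and 8.75 FPKM in Ctrl+FF and 11.9, 10.9, 10.8 and 11.7 in B2D+FF. Mterf2, of the family of mitochondrial transcription terminators, fell (-0.48 ± 0.11, adjusted p 0.0448, limma), from 1.95, 1.60, 2.04 and 1.35 to 0.938, 0.730, 0.938 and 1.23. The call of Fastk was lost without Ctrl+FF 1 or Ctrl+FF 2 (adjusted p up to 0.0577), and that of Mterf2 without any mouse other than Ctrl+FF 4 or B2D+FF 4 (up to 0.128, limma). The mitochondrial RNA polymerase Polrmt and the transcription factor Tfam had log2 fold changes of 0.12 ± 0.08 and 0.10 ± 0.08 in that experiment and of 0.02 ± 0.14 and -0.06 ± 0.11 without fenofibrate, with no p under 0.05.

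Of 14 regulators of nuclear respiratory genes tested, 1 rose with fenofibrate and 0 without, where 2.24% and 0.769% of all tested genes did. It was Esrra, the nuclear receptor ERRα, whose levels were 18.5, 18.7, 23.1 and 20.6 FPKM in Ctrl+FF and 30.5, 30.4, 26.8 and 30.8 in B2D+FF (log2 fold change 0.53 ± 0.10, adjusted p 0.0181, limma; up to 0.0730 without Ctrl+FF 1, Ctrl+FF 2 or B2D+FF 4). Every B2D+FF mouse lay above every Ctrl+FF mouse, and without fenofibrate the groups overlapped (-0.19 ± 0.16). Ppargc1a, a coactivator of ERRα, had 0.61 ± 0.24 in B2D (adjusted p 0.195, limma) and 0.68 ± 0.22 in B2D+FF (adjusted p 0.111, limma), with overlap in both.

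The promoters of nuclear members were searched because several factors are known to bind near their starts. RefSeq promoters of GRCm38.p6, from 250 bases before to 50 after the start, were matched for 74 nuclear members by symbol, among them Ndufv1, Atp5b, Uqcrc1 and Cox7a1; Cyc1 was not among them. The NRF1 motif, GCGCATGCG on either strand, was found in 10 of the 74 (13.5%) and in 1.95% of 27025 genes with a promoter. The ETS motif of GABPA, CCGGAAG, was found in 18 (24.3%) and in 9.93% of all genes, and the YY1 motif, AAGATGGCG, in 8 (10.8%) and in 1.64%. The PPAR-RXR direct repeat, 2 copies of AGGTCA with 1 base between, was in none of the 74 and in 0.0481% of all genes.

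Of the 4 members that rose with fenofibrate and had a promoter, Uqcrc1 held an NRF1 match, shown in capitals, which overlaps itself on the opposite strand; the other 3 held none of the motifs. The promoters of Ndufv1 (chr19:4012706-4013005, minus strand), Uqcrc1 (chr9:108936398-108936697, plus strand) and Atp5b (chr10:128083057-128083356, plus strand) are shown for the electron entry, complex III and ATP synthase members that rose:
Ndufv1: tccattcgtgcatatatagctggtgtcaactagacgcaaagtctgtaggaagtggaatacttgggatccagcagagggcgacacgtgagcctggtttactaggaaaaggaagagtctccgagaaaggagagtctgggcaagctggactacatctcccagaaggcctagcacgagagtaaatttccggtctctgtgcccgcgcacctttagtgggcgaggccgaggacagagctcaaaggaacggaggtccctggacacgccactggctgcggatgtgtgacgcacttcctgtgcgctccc
Uqcrc1: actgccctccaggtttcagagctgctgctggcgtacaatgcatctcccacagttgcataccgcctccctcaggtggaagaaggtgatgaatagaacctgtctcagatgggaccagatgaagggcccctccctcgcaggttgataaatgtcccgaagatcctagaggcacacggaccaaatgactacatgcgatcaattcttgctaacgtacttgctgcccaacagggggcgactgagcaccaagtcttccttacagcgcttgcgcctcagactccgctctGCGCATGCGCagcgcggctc
Atp5b: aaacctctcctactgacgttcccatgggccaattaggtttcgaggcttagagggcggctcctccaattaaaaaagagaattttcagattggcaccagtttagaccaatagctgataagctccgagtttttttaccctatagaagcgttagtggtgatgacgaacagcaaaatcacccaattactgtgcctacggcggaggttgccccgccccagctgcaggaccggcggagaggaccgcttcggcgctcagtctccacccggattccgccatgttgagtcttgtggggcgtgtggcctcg
These matches describe letters in the window and say nothing of binding. The capitals in Uqcrc1 span both overlapping matches, after the start of the gene.

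Markers of other cells that liver tissue can hold were measured in the same libraries. The erythroid marker Alas2 fell in both experiments (-1.36 ± 0.23, adjusted p 0.0114, and -1.37 ± 0.11, adjusted p 0.000918, limma), and the 6 erythroid markers summed to 184 to 249.7 FPKM in Ctrl, 91.2 to 391.6 in B2D, 437 to 629.7 in Ctrl+FF and 284 to 689.7 in B2D+FF. In the first experiment 1 of 8 macrophage markers fell, where 1.94% of all tested genes did. It was the Kupffer cell gene Clec4f (-0.47 ± 0.11, adjusted p 0.0412, limma). Of the 8 macrophage markers, 7 had a log2 fold change below 0 in each experiment, with medians of -0.17 in B2D and -0.32 in B2D+FF. In B2D+FF 2 were lower without overlap, against 6.44% of all tested genes, and 0 passed. All 4 adipocyte markers tested in B2D were above 0, with a median of 0.65, and 0 passed. The 6 summed to 25.7 to 52.3 FPKM in Ctrl and 33.6 to 119.6 in B2D, with the highest sum in B2D 2. That mouse carried the Ucp1 and Adipoq transcripts given above, and Cidea was tested in only 9 of the 10 fits that left out 1 mouse. The shared sign of the 4 can therefore rest on single mice and on the filter, and is not a result on the diet. In the fenofibrate experiment 1 of 6 endothelial markers rose (Lyve1, 0.77 ± 0.16) and 5 were below 0, with a list median of -0.10. Of 8 hepatocyte markers 1 fell (Serpina1c, -1.35 ± 0.18) and 5 were above 0, with a list median of 0.04. Of 6 adipocyte markers Cidec rose (0.97 ± 0.18) and Cidea fell (-1.34 ± 0.31). Over all tested genes 2.24% rose and 2.21% fell. The call of Clec4f was lost under 16 of 21 alternatives, among them the 4 other scalings and leaving out any mouse other than Ctrl 3 (adjusted p up to 0.125). With 1 mouse left out, the call of Lyve1 was lost without Ctrl+FF 1, 2 or 3 or B2D+FF 4 (up to 0.0951), that of Cidec without Ctrl+FF 1 or 3 or B2D+FF 1 or 4 (up to 0.0689), and that of Cidea without any mouse other than B2D+FF 1 (up to 0.118, limma). No stellate cell, cholangiocyte, lymphocyte or striated muscle marker tested passed. The summed endothelial markers lay between 24.9 and 40.1 FPKM in all mice, with overlapping ranges in each experiment. The part of these cells in the differences of the members was not tested.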

How the data were processed

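Liver mRNA libraries (NEBNext Ultra, paired-end) of 18 mice were read from a pair of tables of FPKM, 1 for each experiment. Per the study's methods and the submitters' processing notes, the authors aligned reads with STAR to mm10, counted them per gene with featureCounts and normalised the counts with DESeq2 within each table before they deposited the FPKM values; tool versions, the strand setting and the handling of reads with several matches are not given in the sources used here. Replicates are separate mice. The low values of each gene stepped in whole reads, which gave the depth per library. Intervals are at 95%.

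Genes with a mean of at least 0.5 FPKM were tested as log2(FPKM + 1) with limma 3.58.1 (R 4.3.3, trended variance), Benjamini-Hochberg threshold 0.05, B2D against Ctrl, B2D+FF against Ctrl+FF, and their difference in 1 fit. A pseudocount of 1 understates the fold change of low genes. The steps were also run on simulated counts, with changes larger than most of those reported here and no shift shared by genes. That run does not bear on whether single calls hold. The members, roles and gene lists were chosen with earlier results of these data known. Named were all mitochondrial genes, Ndufv1 and Sdha, members and list genes past the threshold, the 5 largest fold changes each way in each experiment, the highest nuclear member of each complex, isoform pairs, and Ppargc1a, Tfam, Polrmt and Cycs; Ndufs8, the members next to the threshold, Sdhb and Sdhc, and the fat and muscle genes beside the isoforms were added after their values were seen; 1 member next to the threshold is not reported here by name. Shared sequence was counted in 100-base windows of GENCODE mouse release 21 transcripts; 102 of the 108 members have the same coordinates there. Alternatives were another pseudocount and filters, 4 other scalings, array weights, voom on the recovered reads, 1 fit of all groups, and leaving out each mouse.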

Additional observations from a re-analysis of the deposited data

Results flagged for a closer look

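Of 169 sets of values (1 gene or sum in the mice of 1 group), 15 held a mouse whose distance to its nearest neighbour was large against the range of the group (Dixon ratio above its 95% critical value). Chance alone marks about 1 set in 20. Among the mitochondrial genes, mt-Nd4l was 120.4 FPKM in Ctrl+FF 1, mt-Nd5 was 2644 in Ctrl 1 and mt-Atp8 was 19.2 in B2D 4. Among the nuclear members, Ndufv1 was 77.0 FPKM in B2D+FF 2, below the other B2D+FF mice and still above all Ctrl+FF mice. Ctrl+FF 3 had the highest Atp5g1 of its group, 37.2 FPKM, and the highest Ndufb11, 263.7 FPKM. The muscle and brown fat isoforms gave Cox8b at 10.6 FPKM in B2D 2, 4.74 in Ctrl+FF 1 and 0.271 in B2D+FF 4, Cox7a1 at 7.56 in B2D 2, and Cox6a2 at 0.0799 in B2D 1, 0.169 in Ctrl+FF 3 and 0.0863 in B2D+FF 1, each of the Cox6a2 values above mice listed at 0. The ratio of the mitochondrial to the nuclear sum was 8.65 in Ctrl 5 and 3.47 in B2D+FF 1.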

How the results depend on the processing

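No paired analysis was possible because the labels give the groups no shared replicate numbers. The counts below are of members past the threshold. B2D against Ctrl gave 0 higher and 0 lower, and 0 and 0 whichever mouse was left out; it gave 9 higher and 3 lower at an unadjusted p, and higher counts of 1 after quantile normalisation (mt-Cytb), 3 at a fixed sum of FPKM, 4 at a fixed sum over nuclear genes, 1 with array weights (mt-Nd5) and 4 in the fit of all 4 groups. The fixed sum over nuclear genes moved the median of all genes by 0.12. B2D+FF against Ctrl+FF gave 5 higher and 0 lower; it gave 27 and 2 at an unadjusted p, and higher counts of 1 with no filter (Ndufv1), 3 after upper-quartile rescaling, 13 at a fixed sum, 11 at a fixed sum over nuclear genes, 11 with array weights and 3 in the fit of all 4 groups. It gave 1 lower at a mean of at least 5 FPKM (mt-Co1) and 1 lower with voom (mt-Co3). With 1 mouse left out, the counts ran from 0 to 5 higher and from 0 to 1 lower, and the mitochondrial median from -0.140 to -0.0076; that median was 0.057 after quantile normalisation. The difference between the experiments gave 0 and 0; it gave 15 higher and 6 lower at an unadjusted p, and 1 higher with array weights (Ndufv1). The causes of these changes were not tested. Some alternatives also change the number of mice or of genes tested. Over all genes, upper-quartile rescaling turned 266 higher and 263 lower with fenofibrate into 223 and 366. Without Ctrl+FF 3, Ctrl+FF 4 and B2D+FF 1 the fenofibrate comparison gave 0 higher and a mitochondrial median of 0.0186. That choice, leaving out Ctrl 5, B2D 3 and B2D 5, and the median of mitochondrial genes with little shared sequence, were chosen after seeing the data. No direction of a named member that passed was reversed. Depth limits the tested members mt-Atp8, Cox6b2, Cox7a1, Cox8b, Ndufaf5, Ndufb2 and Ndufa4l2, which rest on under 100 reads in some libraries. The number of mice in a group limits all members.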
